A study of Mus musculus with 12 samples.

Results

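The 41 genes described here are genes of the interferon response and of antigen presentation by MHC class I. They were chosen by symbol, and all 41 were found among the 47729 genes of the count table. They comprise 5 transcription factors, 3 sensors of viral RNA, 18 antiviral effectors, 6 interferon-induced GTPases and 9 genes of MHC class I presentation. Interferons are signalling proteins that bind receptors on the cell surface, after which STAT and IRF transcription factors switch on a large set of genes that limit viruses. Type I and type III interferons act through a complex that holds STAT2 and IRF9 on the interferon-stimulated response element (ISRE), and interferon gamma acts on the gamma-activated site (GAS). The same signals raise MHC class I, which shows peptides cut by the immunoproteasome to T cells, and in the gut epithelium both programmes run at a low level without infection.

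All groups carried *Lgr5-EGFP-IRES-CreERT2*, an allele that places EGFP and an inducible Cre under the *Lgr5* locus, and RNA was sequenced from the brightest EGFP cells, sorted as intestinal stem cells (ISCs). There were 4 groups of 3 libraries each. Ctrl mice were left unrestrained and without food and water for as long as the stressed mice, stress mice were restrained for 3 h, vehicle mice were injected intraperitoneally with 20% sulfobutylether-β-cyclodextrin, and CORT mice were injected with corticosterone at 5 mg/kg in that solution. All mice were 8 to 10 weeks old and of both sexes, and the sex of single libraries is not given in the labels. The libraries are numbered 1, 2 and 3 in Ctrl, 1+2, 3 and 4+5+6 in stress, 3, 5 and 6 in vehicle and 2, 4 and 5 in CORT, and the joined numbers read as pools of mice. In sorted bulk cells, a lower RNA level per cell and a smaller share of cells with the RNA cannot be told apart, and p-values measure the spread between these libraries.

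The libraries of Ctrl and stress held 15934907 to 17135770 estimated counts, those of vehicle 16465961 to 31280267 and those of CORT 29426183 to 69533214. The ISC markers were abundant in all libraries, with *Lgr5* between 128 and 247 CPM (counts scaled to a common library total after TMM normalisation). At an edgeR adjusted p below 0.05, 1 of the 6 was lower in stress vs. Ctrl (*Ascl2*) and 3 in CORT vs. vehicle (*Lgr5*, *Ascl2* and *Smoc2*). The shares of all genes in either direction were 1.97% and 9.24%. Of the 8 T cell and intraepithelial lymphocyte markers, 4 were at or below the counting floor of 3 read pairs in every library, and the 8 together summed to 1.08 to 7.27 CPM. The pan-leukocyte gene *Ptprc* was at 0 in 11 libraries and at 1.10 CPM in stress 4+5+6. Glucocorticoid target genes moved with the treatments, and *Fkbp5* rose by 1.72 ± 0.12 (SE) on the log2 scale in stress vs. Ctrl and by 2.42 ± 0.12 in CORT vs. vehicle (edgeR, adjusted p = 2.354e-05 and 1.562e-06, n = 3 per group). Of the 5 glucocorticoid target genes checked, *Fkbp5* also rose by 1.42 ± 0.12 in vehicle vs. Ctrl (edgeR, adjusted p = 2.52e-05). *Sgk1* fell there by 1.25 ± 0.21 (edgeR, adjusted p = 0.01004). *Zbtb16* (2.75 ± 1.15), *Tsc22d3* (-0.13 ± 0.14) and *Per1* (-0.26 ± 0.17) were not called at an adjusted p below 0.05.

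Promoter sequence, from RefSeq on the build GRCm38.p6, was at hand for 31 of the 41 genes, as windows from 250 bases before to 50 bases after the start of transcription. The letters GAAANNGAAA, the core of the ISRE, occurred on either strand in 16 of the 31 genes (51.6%), against 3.99% of the 27025 genes searched. The genes searched leave out a chromosome. The GAS letters TTCNNNGAA occurred in 8 of the 31 (25.8%), against 9.55% of all genes searched. The palindrome of the glucocorticoid receptor, GNACANNNTGTNC, occurred in 0 of the 31 genes and in 0.537% of all genes searched, which says only that these letters were not in these windows. The 10 windows of 30 bases that follow show ISRE matches ahead of the RefSeq start, in the direction of the gene and with the matched bases in capitals. They were chosen to span the antiviral effectors, the GTPases and MHC class I, and in some of them adjoining matches overlap.
*Isg15* (chr4:156200871-156200900, minus strand, 82 to 53 bases before the start): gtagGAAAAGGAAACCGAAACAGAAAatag
*Bst2* (chr8:71537580-71537609, minus strand): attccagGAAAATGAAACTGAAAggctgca
*Ifit3* (chr19:34583397-34583426, plus strand): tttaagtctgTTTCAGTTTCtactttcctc
*Rsad2* (chr12:26456553-26456582, minus strand): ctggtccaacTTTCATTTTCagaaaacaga
*Gbp2* (chr3:142620594-142620623, plus strand): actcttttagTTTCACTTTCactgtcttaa
*Gbp3* (chr3:142559992-142560021, plus strand): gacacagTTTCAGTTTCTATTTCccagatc
*Irgm1* (chr11:48871428-48871457, minus strand): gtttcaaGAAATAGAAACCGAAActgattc
*Igtp* (chr11:58199512-58199541, plus strand): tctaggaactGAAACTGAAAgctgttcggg
*Irgm2* (chr11:58214903-58214932, plus strand): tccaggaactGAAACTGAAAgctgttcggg
*B2m* (chr2:122147538-122147567, plus strand): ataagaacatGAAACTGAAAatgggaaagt

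The *Isg15* window held 3 overlapping matches in a row. The windows of *Igtp* and *Irgm2* were the same at 29 of 30 bases, and the annotated spans of both genes overlap by 7974 bases on the same strand, so that their counts may be split unevenly. *Irf7*, *Oasl2*, *Xaf1* and *Ifi44* had no such match in their windows, and *H2-K1* and *H2-D1* had neither an ISRE nor a GAS match.

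Compared per transcript length, the MHC class I genes were the most abundant members. *B2m*, the light chain shared by all MHC class I molecules, had a mean of 617 FPKM over the 12 libraries, with a range of 351 to 915. The heavy chains *H2-K1* and *H2-D1* followed at 348 and 177 FPKM, and the immunoproteasome subunit *Psmb10* at 113 FPKM. *Bst2*, a membrane tether of budding virus, had a mean of 69.3 FPKM and *Irf1*, a factor downstream of interferon gamma, 68.3 FPKM, but the range of *Bst2* was 15.4 to 230.1 FPKM and that of *Irf1* only 43.6 to 89.7. The least abundant members were *Cxcl10*, a chemokine for T cells, with a mean of 0.416 FPKM, *Mx1* with 0.656 and *Rsad2* with 0.785. H2 heavy chains, *Ifit3* with *Ifit3b*, *Oas1a* with *Oas1g* and the 2 entries listed as *Gbp6* have near-identical copies, so reads of such genes may be assigned to the wrong copy.

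Most members shared an order of libraries in which vehicle and CORT were each split. In 32 of the 41 members, the 3 libraries with the highest CPM were vehicle 3, vehicle 6 and CORT 2, whereas this held for 182 of the 14415 genes tested over the 12 libraries (1.26%). These were 4 of 5 transcription factors, 3 of 3 sensors, 17 of 18 antiviral effectors, 5 of 6 GTPases and 3 of 9 genes of MHC class I presentation. In 15 members the lowest of the 3 was at least 2 times the highest of the other 9 libraries, as in 36 of all genes tested (0.25%). The 3 libraries were picked after the data had been seen, because the members were highest there, so a large share of members was built in. All genes tested include the 41 members. The map of the 41 genes by library shows the pattern as red columns, a pair in vehicle and a single one in CORT.

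**Figure D1:**
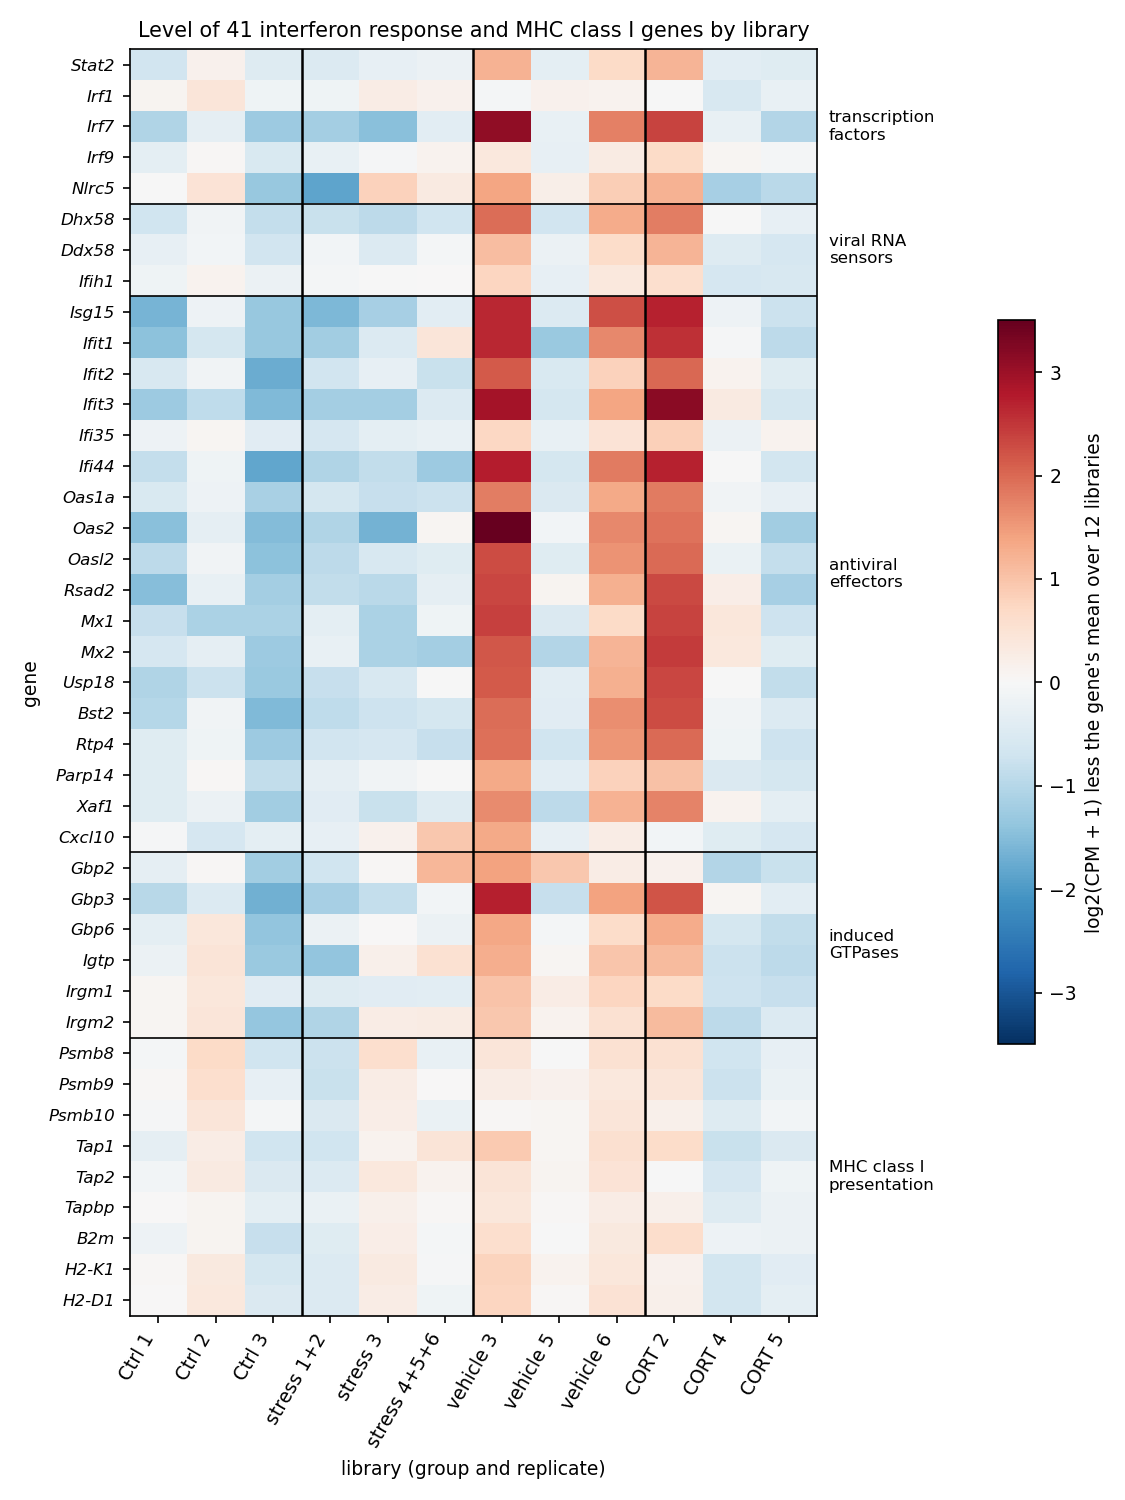
Level of each of the 41 genes (rows, ordered by role) in each of the 12 libraries (columns), as log2(CPM + 1) less the mean of the same gene over the 12 libraries. Red marks levels above that mean and blue below it. The columns of vehicle 3, vehicle 6 and CORT 2 are red for 32 genes that have their 3 highest levels there, while the MHC class I rows at the bottom vary less and also within Ctrl and stress.

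*Irf7* (chromosome 7, 141262706 to 141266481, minus strand, mm10), the factor that amplifies type I interferon production, showed the split most plainly among the transcription factors. Its level was 16.7, 28.3 and 14.0 CPM in Ctrl 1, 2 and 3, and 14.98, 12.1 and 26.99 CPM in stress 1+2, 3 and 4+5+6. It was 311, 29.4 and 123 CPM in vehicle 3, 5 and 6, and 187, 29.6 and 16.8 CPM in CORT 2, 4 and 5. Vehicle 5 was thus level with CORT 4, and the ranges of vehicle and CORT overlapped. The other factors of this kind moved less. *Stat2*, a partner in the ISRE-binding complex, was at 64.0, 43.5 and 62.1 CPM in vehicle 3, vehicle 6 and CORT 2 and at 16.6 to 29.6 CPM in the other 9 libraries. *Irf9*, its DNA-binding partner, was at 78.3, 74.1 and 97.4 CPM in these and at 42.0 to 65.8 CPM elsewhere.

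*Irf1* departed from this order. It was at 163, 207 and 138 CPM in Ctrl, 138, 186 and 172 CPM in stress, 147, 170 and 169 CPM in vehicle and 154, 104 and 129 CPM in CORT, in the order of the library numbers. Its highest library was Ctrl 2 and its lowest CORT 4. *Nlrc5*, the activator of MHC class I transcription, was at 9.59, 14.0 and 3.29 CPM in Ctrl and at 1.99, 17.8 and 12.3 CPM in stress. It was at 26.6, 11.3 and 18.2 CPM in vehicle and at 24.04, 3.79 and 4.50 CPM in CORT. It had the same 3 highest libraries, but vehicle 6 was barely above stress 3, and the SD of log2(CPM + 1) was 1.41 within stress and 1.32 within CORT.

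The 3 cytoplasmic sensors of viral RNA were all highest in vehicle 3, vehicle 6 and CORT 2. *Dhx58*, the regulator LGP2, ranged from 38.5 to 62.1 CPM in these and from 7.64 to 15.02 CPM in the other 9 libraries. *Ddx58*, which encodes RIG-I, ranged from 47.6 to 69.3 CPM against 18.5 to 28.4 CPM. *Ifih1*, which encodes MDA5, was the flattest, at 56.9 to 74.7 CPM against 28.8 to 47.3 CPM.

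Among the antiviral effectors, *Isg15*, a ubiquitin-like modifier (chromosome 4, 156199424 to 156200818, minus strand), was at 2.22, 7.83 and 2.93 CPM in Ctrl 1, 2 and 3 and at 2.36, 3.46 and 6.69 CPM in stress 1+2, 3 and 4+5+6. It was at 60.6, 6.16 and 46.0 CPM in vehicle 3, 5 and 6 and at 63.5, 7.82 and 4.92 CPM in CORT 2, 4 and 5. No library had an intermediate level, and the lowest of the 3 high libraries was 5.87 times the highest of the other 9. *Bst2* behaved likewise, with 19.5, 36.5 and 12.9 CPM in Ctrl, 20.7, 23.7 and 25.3 CPM in stress, 157, 29.95 and 123 CPM in vehicle and 197, 36.2 and 28.1 CPM in CORT. The plot of 6 interferon-stimulated genes by library shows the same libraries on top in 5 of them.

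**Figure D2:**
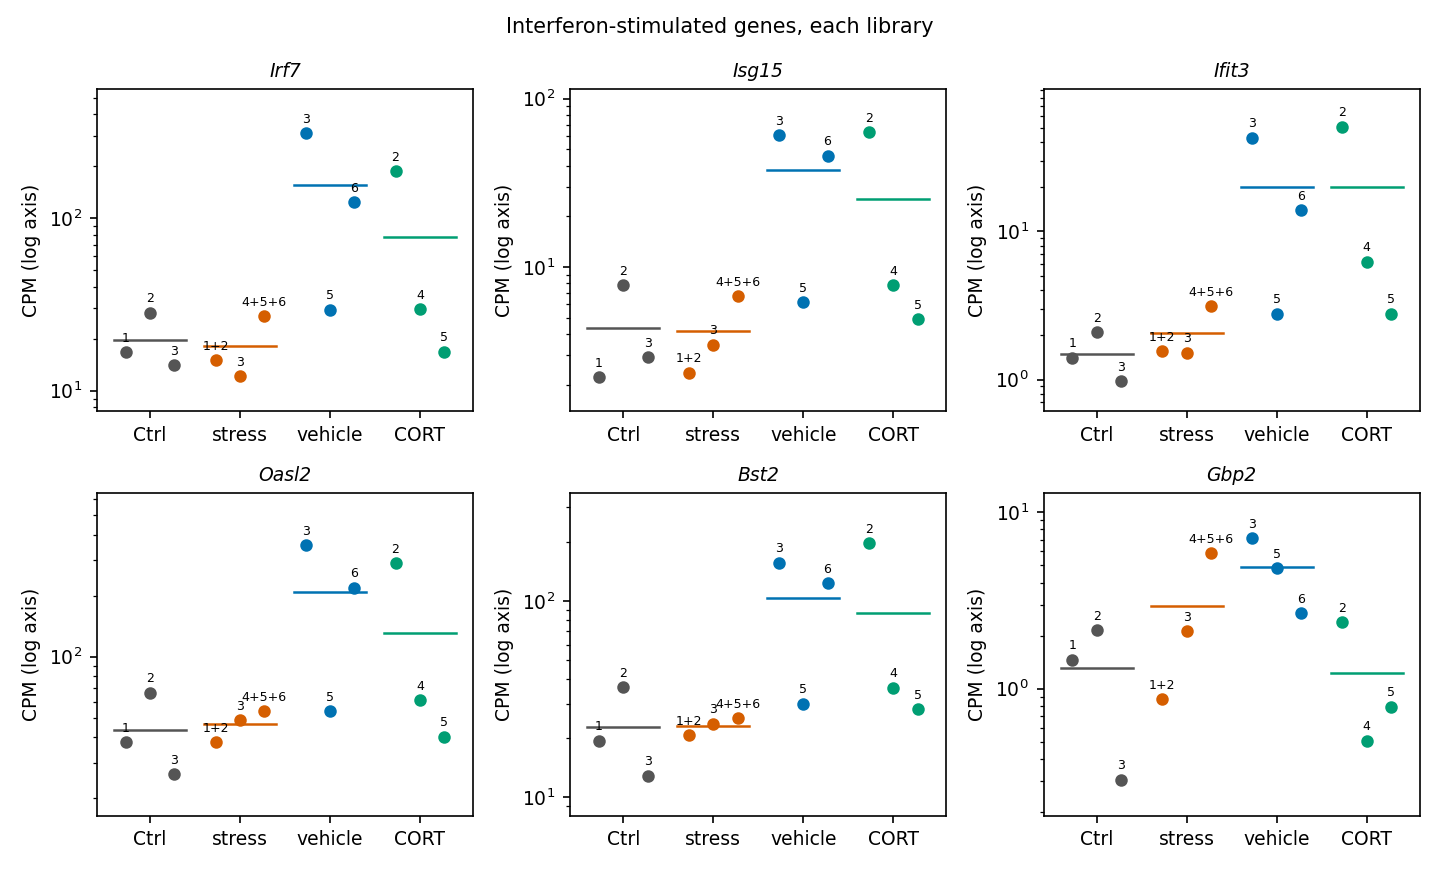
CPM on a log axis of *Irf7*, *Isg15*, *Ifit3*, *Oasl2*, *Bst2* and *Gbp2* in every library, with points labelled by library number, colours for the 4 groups and a bar at each group's mean (n = 3). Vehicle 3, vehicle 6 and CORT 2 lie above the other 9 libraries in all panels but that of *Gbp2*, in which vehicle 3, stress 4+5+6 and vehicle 5 are highest.

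The IFIT proteins bind viral RNA without the marks of host RNA. *Ifit3* was at 1.40, 2.09 and 0.975 CPM in Ctrl, 1.55, 1.52 and 3.12 CPM in stress, 42.8, 2.79 and 13.9 CPM in vehicle and 50.8, 6.24 and 2.79 CPM in CORT. *Ifit1* was at 0.818, 2.21 and 0.975 CPM in Ctrl, 1.12, 2.55 and 5.60 CPM in stress, 29.5, 0.989 and 14.9 CPM in vehicle and 27.8, 3.81 and 1.58 CPM in CORT. Both genes were low in vehicle 5, and their highest stress library was the pool 4+5+6. *Ifit2* ranged from 18.3 to 48.7 CPM in vehicle 3, vehicle 6 and CORT 2 and from 2.38 to 11.2 CPM elsewhere.

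The oligoadenylate synthetase family, whose members answer to double-stranded RNA, had the same order at levels far apart. *Oasl2* was at 219 to 356 CPM in the 3 high libraries and at 26.3 to 66.4 CPM in the other 9, and *Oas1a* was at 123 to 173 CPM against 21.4 to 43.8 CPM. *Oas2* was at 0.409, 2.15 and 0.366 CPM in Ctrl, 0.870, 0.243 and 3.06 CPM in stress, 45.6, 2.68 and 11.4 CPM in vehicle and 13.7, 3.11 and 0.688 CPM in CORT. The *Oas2* values under 0.75 CPM in Ctrl and stress are at or near the floor of these libraries, which was 0.700 to 0.753 CPM.

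*Ifi44*, a large interferon-induced protein, was at 10.1, 17.0 and 4.63 CPM in Ctrl, 8.70, 9.94 and 7.27 CPM in stress, 134, 12.0 and 69.9 CPM in vehicle and 129, 19.0 and 11.7 CPM in CORT. *Usp18*, which removes ISG15 and dampens the type I receptor, was at 0.818, 1.26 and 0.548 CPM in Ctrl, 1.181, 1.58 and 2.77 CPM in stress, 15.7, 1.92 and 8.06 CPM in vehicle and 18.2, 2.79 and 1.10 CPM in CORT. All 3 vehicle libraries were above all 3 Ctrl libraries for *Usp18*, although vehicle 5 was below stress 4+5+6. *Rsad2*, which encodes viperin, was at 0, 1.38 and 0.244 CPM in Ctrl, 0.559, 0.485 and 1.27 CPM in stress, 13.2, 2.04 and 5.73 CPM in vehicle and 13.0, 2.301 and 0.275 CPM in CORT.

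Of the other effectors, *Mx1* and *Mx2*, dynamin-like GTPases against viruses, reached 2.43 to 10.2 CPM and 7.54 to 19.1 CPM in the 3 high libraries and stayed at most at 1.83 and 3.79 CPM in the others, *Mx1* being at 0 in Ctrl 2, Ctrl 3 and stress 3. *Rtp4*, a chaperone of receptors, *Xaf1*, a pro-apoptotic factor, *Parp14*, an ADP-ribosyltransferase, and *Ifi35* had their 3 highest levels in the same libraries, with 28.7 to 41.7 CPM against 4.51 to 13.1 CPM for *Xaf1* and a narrower gap for *Ifi35*. *Ifi35* was at 42.0, 49.3 and 35.7 CPM in Ctrl, 31.2, 37.0 and 39.2 CPM in stress, 79.1, 39.6 and 66.1 CPM in vehicle and 84.6, 41.2 and 51.6 CPM in CORT. *Cxcl10* was the exception, at 0.468, 0 and 0.183 CPM in Ctrl, 0.249, 0.667 and 1.90 CPM in stress, 2.79, 0.233 and 0.809 CPM in vehicle and 0.403, 0.135 and 0 CPM in CORT. Only vehicle 3, vehicle 6, stress 4+5+6 and CORT 2 were above their floor for *Cxcl10*.

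The interferon-induced GTPases guard against pathogens inside vacuoles and answer mainly to interferon gamma. *Gbp3* was at 2.22, 3.53 and 0.975 CPM in Ctrl, 1.802, 2.55 and 4.85 CPM in stress, 40.2, 2.56 and 15.6 CPM in vehicle and 27.9, 5.60 and 3.85 CPM in CORT. *Gbp2* (chromosome 3, 142620602 to 142638008, plus strand) was at 1.46, 2.15 and 0.305 CPM in Ctrl, 0.870, 2.12 and 5.88 CPM in stress, 7.13, 4.83 and 2.69 CPM in vehicle and 2.39, 0.508 and 0.791 CPM in CORT. For *Gbp2*, unlike *Gbp3*, vehicle 5 was among the 3 highest libraries and CORT 2 was not, and all vehicle libraries were above all CORT libraries.

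*Irgm1*, a regulator of the immunity-related GTPases (chromosome 11, 48861968 to 48871683, minus strand), was at 67.7, 84.3 and 48.7 CPM in Ctrl, 46.5, 48.6 and 49.7 CPM in stress, 129, 76.4 and 108 CPM in vehicle and 102, 38.4 and 35.8 CPM in CORT. The stress libraries lay close together around the lowest Ctrl library. *Igtp*, *Irgm2* and *Gbp6* were low in Ctrl 3 and in CORT 4 and 5, and *Igtp* and *Irgm2* also in stress 1+2, with 9.63 and 13.4 CPM there.

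The MHC class I genes had narrower ranges, with spread in every group. *H2-K1* (chromosome 17, 33996017 to 34000333, minus strand) was at 623, 769 and 395 CPM in Ctrl, 429, 757 and 584 CPM in stress, 1028, 661 and 789 CPM in vehicle and 671, 389 and 456 CPM in CORT. *H2-D1* was at 387, 501 and 273 CPM in Ctrl, 275, 464 and 352 CPM in stress, 649, 401 and 551 CPM in vehicle and 441, 247 and 303 CPM in CORT. Ctrl 3, stress 1+2 and CORT 4 were the lowest libraries of their groups for both heavy chains, and Ctrl 2 and stress 3 the highest of theirs.

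*B2m* was at 509, 610 and 330 CPM in Ctrl, 430, 669 and 543 CPM in stress, 860 (vehicle 3), 566 and 728 CPM in vehicle and 880, 505 and 499.6 CPM in CORT. It was highest in CORT 2, in which the heavy chains were not. *Tap2*, a subunit of the peptide pump into the endoplasmic reticulum (chromosome 17, 34203527 to 34216321, plus strand), was at 26.1, 35.4 and 19.6 CPM in Ctrl, 19.9, 36.4 and 30.8 CPM in stress, 38.6, 30.4 and 39.7 CPM in vehicle and 27.7, 18.6 and 25.5 CPM in CORT. All 3 CORT libraries were below all vehicle libraries, with CORT 2 and vehicle 5 nearest to each other, while both groups overlapped with Ctrl and stress.

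*Tap1*, its partner, followed the antiviral genes, with 122, 94.3 and 99.9 CPM in vehicle 3, vehicle 6 and CORT 2 and 36.7 to 87.1 CPM elsewhere. The immunoproteasome subunits *Psmb8*, *Psmb9* and *Psmb10* did not, since Ctrl 2 was the highest library for *Psmb8* and *Psmb9* and the second highest for *Psmb10*. *Psmb10* was at 154, 212 and 152 CPM in Ctrl, 110, 187 and 134 CPM in stress, 163, 165 and 214 CPM in vehicle and 179, 115 and 148 CPM in CORT. *Tapbp*, which loads peptide on the heavy chains, was at 159, 168 and 124 CPM in Ctrl, 132, 175 and 162 CPM in stress, 205, 162 and 188 CPM in vehicle and 178, 114 and 137 CPM in CORT.

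The levels of MHC class II varied between libraries in an order that differed from that of the antiviral genes. *Cd74*, the invariant chain, was at 758, 931 and 293 CPM in Ctrl, 336, 1396 and 423 CPM in stress, 375, 643 and 480 CPM in vehicle and 370, 77.8 and 258 CPM in CORT. Its highest libraries, stress 3, Ctrl 2 and Ctrl 1, included both libraries in which MHC class I was highest within Ctrl and stress, and its lowest, CORT 4, was also the lowest for *H2-K1* and *H2-D1*. In 0 of the 8 MHC class II genes were vehicle 3, vehicle 6 and CORT 2 the 3 highest libraries.

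**Figure D3:**
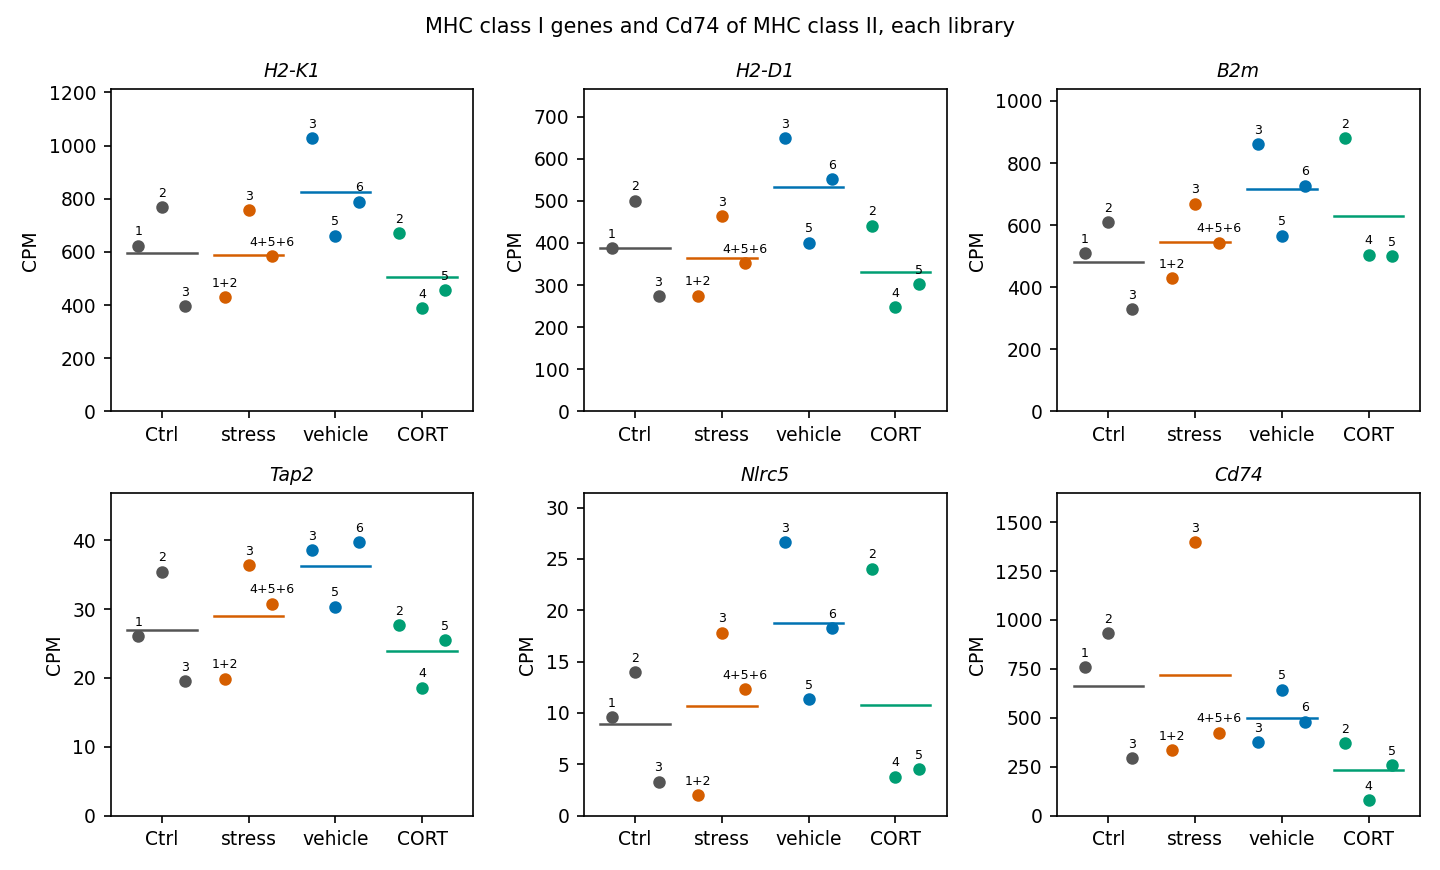
CPM on a linear axis from 0 of *H2-K1*, *H2-D1*, *B2m*, *Tap2* and *Nlrc5* and of the MHC class II invariant chain *Cd74* in every library, with points labelled by library number and a bar at each group's mean (n = 3). The points spread in all 4 groups, most widely in CORT for *B2m* and *Nlrc5* and in stress for *Cd74* and *Tap2*, and for *Tap2* the 3 CORT points lie below the 3 vehicle points.

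The spread within groups exceeded the median of all genes for all 41 members in Ctrl and CORT, for 39 in vehicle and for 31 in stress. The SD of log2(CPM + 1) over the 3 libraries of a group had a median over the 41 members of 0.48, 0.38, 0.80 and 1.09 for Ctrl, stress, vehicle and CORT. The medians over all 14415 genes tested were 0.15, 0.18, 0.16 and 0.12. The median SD of the effectors was 1.39 in vehicle and 1.49 in CORT, and that of MHC class I presentation was 0.29 and 0.42. Of the 50 genes with the widest SD, members made up 15 in vehicle and 16 in CORT, but 0 in Ctrl and 1 in stress (*Nlrc5*). The lists of 50 in vehicle and in CORT shared 31 genes (62% of each), of which 13 were members.

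**Figure D4:**
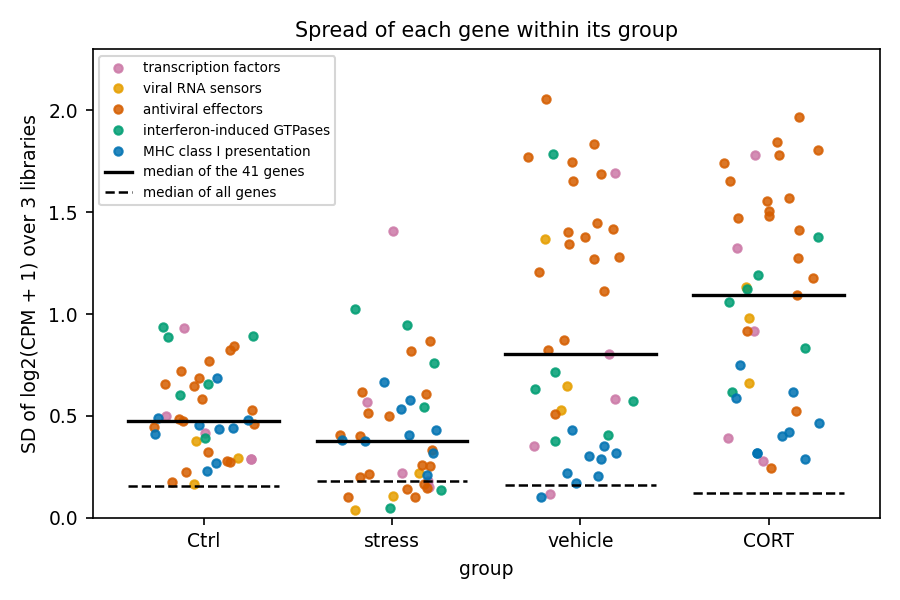
SD of log2(CPM + 1) over the 3 libraries of each group for each of the 41 genes (points, coloured by role), with the median of the 41 genes (solid line) and of all 14415 genes tested (dashed line). The members' medians are 0.48, 0.38, 0.80 and 1.09 in Ctrl, stress, vehicle and CORT, and the widest points in vehicle and CORT are antiviral effectors.

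Stress vs. Ctrl asks how a single restraint session moved these genes. Of the 41 members, 38 passed the filter on low counts (not *Rsad2*, *Mx1* and *Cxcl10*), and 0 of them were called at an adjusted p below 0.05 by edgeR's quasi-likelihood test, against 1.97% of all genes tested. DESeq2 called 0 members as well, against 4.4% of all genes. At an unadjusted p below 0.05 there was 1 member, against 15.2% of all genes. This was *Irgm1*, with a log2 fold change of -0.47 ± 0.17 (SE) and an adjusted p of 0.217 by edgeR. The libraries of both groups overlapped for every one of the 38, whereas 20.4% of all genes tested had groups that did not overlap.

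The median log2 fold change of the 38 members was 0.05, with 22 above and 16 below 0, and that of all genes was -0.0028. Next by p were *Ifit1* with 1.21 ± 0.62, *Usp18* with 1.07 ± 0.59, *Ifi35* with -0.24 ± 0.14 and *Gbp2* with 1.178 ± 0.77, with edgeR adjusted p-values from 0.393 to 0.537. Stress 4+5+6 was the highest stress library for *Ifit1*, *Usp18* and *Gbp2*, and without it their log2 fold changes were 0.46, 0.65 and 0.195. In that library enterocyte markers were also highest, the 6 summing to 1684 CPM against 322 in the lowest stress library and 179 to 202 CPM in Ctrl, and their part in these values was not tested. It was also the stress library with *Xist* at 751 CPM, against 2.05 and 0.243 CPM in the others. Without any single library of the 6, the count of called members stayed at 0 and the median ran from -0.16 to 0.37.

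CORT vs. vehicle asks what corticosterone added to the injection. All 41 members were tested and 1 was called, lower, against 9.24% of all genes tested in either direction. This was *Tap2*, which fell by 0.60 ± 0.16 (SE) on the log2 scale, from a mean of 36.2 ± 5.1 CPM in vehicle to 23.9 ± 4.8 CPM in CORT (SD, n = 3 each, edgeR adjusted p = 0.0376), less than a 2-fold change. DESeq2 called *Tap2* and *Gbp2*, against 12.6% of all genes. The edgeR call of *Tap2* was lost without vehicle 3, vehicle 6, CORT 4 or CORT 5, with adjusted p-values of 0.0976, 0.119, 0.141 and 0.0796.

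At an unadjusted p below 0.05 there were 5 members, all lower, against 23.7% of all genes. Beside *Tap2* these were *Gbp2* (-1.96 ± 0.59 on the log2 scale), *Irf1* (-0.33 ± 0.13), *Cxcl10* (-2.67 ± 1.06, near the floor) and *H2-K1* (-0.71 ± 0.26), with edgeR adjusted p-values of 0.0739, 0.151, 0.153 and 0.169. *Gbp2* and *Tap2* were the 2 members whose CORT libraries all lay below the vehicle libraries, as for 14.5% of all genes. The estimate was negative for 38 of the 41 members, with a median of -0.40 (0.014 for all genes) and a median SE of 0.84. All 9 genes of MHC class I presentation were among these, from -0.20 for *B2m* to -0.71 for *H2-K1*.

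The outcome of this comparison turned on CORT 2. Without it, 11 members were called, all lower, against 3.18% of all genes tested that were called lower in that fit. They were *Nlrc5*, *Irf1*, *Gbp2*, *Irgm1*, *Irgm2*, *Psmb8*, *Psmb9*, *Tap2*, *Tapbp*, *H2-K1* and *H2-D1*, so 6 of the 11 belong to MHC class I presentation and none is an antiviral effector. *Nlrc5* then had a log2 fold change of -2.18 ± 0.33, *Irgm1* of -1.49 ± 0.20, *H2-K1* of -0.97 ± 0.17 and *H2-D1* of -0.96 ± 0.20 (edgeR adjusted p = 0.00508, 0.00533, 0.0129 and 0.0371). Averaged over the members, CORT 2 was the highest of the CORT libraries, so lower estimates without it were built in. Without it, CORT is represented by CORT 4 and 5 alone. Both had *Xist*, the RNA of the inactive X chromosome, at 1330 and 996 CPM, whereas CORT 2 and vehicle 3 had it at 2.27 and 16.8 CPM and vehicle 5 and 6 at 800 and 703 CPM, and the part of sex in these values was not tested.

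Vehicle vs. Ctrl serves as the background of injection and handling, and it shares Ctrl with the first comparison and vehicle with the second. Of the 41 members, 39 were tested (not *Mx1* and *Cxcl10*) and 0 were called by edgeR, against 0.909% of all genes tested. At an unadjusted p below 0.05 there were 10, all higher, against 10.9% of all genes. DESeq2 called 5, all higher, namely *Irf7*, *Ifit3*, *Oas2*, *Usp18* and *Gbp2*, against 2.41% of all genes. The estimates were positive for 38 of the 39, with a median of 1.10 on the log2 scale (0.0019 for all genes), 2.44 for the effectors and 0.43 for MHC class I presentation. *Xist* was at 1.44 to 7.01 CPM in Ctrl and the Y-linked *Ddx3y* at 37.8 to 50.6 CPM, while vehicle 5 and 6 had *Xist* at 800 and 703 CPM and *Ddx3y* at 0.698 and 0 CPM, and the part of sex in this comparison was not tested.

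*Usp18* came nearest to the threshold of edgeR, with 3.29 ± 0.79 and an adjusted p of 0.165, followed by *Gbp2* with 1.89 ± 0.57 and an adjusted p of 0.188. In Ctrl 3, *Usp18* at 0.548 CPM and *Gbp2* at 0.305 CPM were below the floor of 0.743 CPM. *Tapbp* (0.30 ± 0.12), *Ifit3* (3.73 ± 1.21) and *Rsad2* (3.68 ± 1.28) had edgeR adjusted p-values of 0.354, 0.398 and 0.399. For 6 of the 39 members (*Irf7*, *Ifit3*, *Oas2*, *Rsad2*, *Usp18* and *Gbp2*) every vehicle library was above every Ctrl library, as for 8.18% of all genes tested. Without vehicle 5, edgeR called 11 members, all higher (*Stat2*, *Dhx58*, *Ddx58*, *Ifit1*, *Ifit3*, *Ifi35*, *Mx1*, *Mx2*, *Usp18*, *Rtp4* and *Xaf1*), against 0.805% of all genes called higher in that fit. Averaged over the members, vehicle 5 was the lowest of the vehicle libraries, so higher estimates without it were built in. Without vehicle 3, vehicle 6 and CORT 2 together, which were chosen because these genes were highest there, so that a lower median was built in, the median was 0.16 and 0 members were called, with vehicle 5 as the lone vehicle library and assumed to vary like the other groups.

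**Figure D5:**
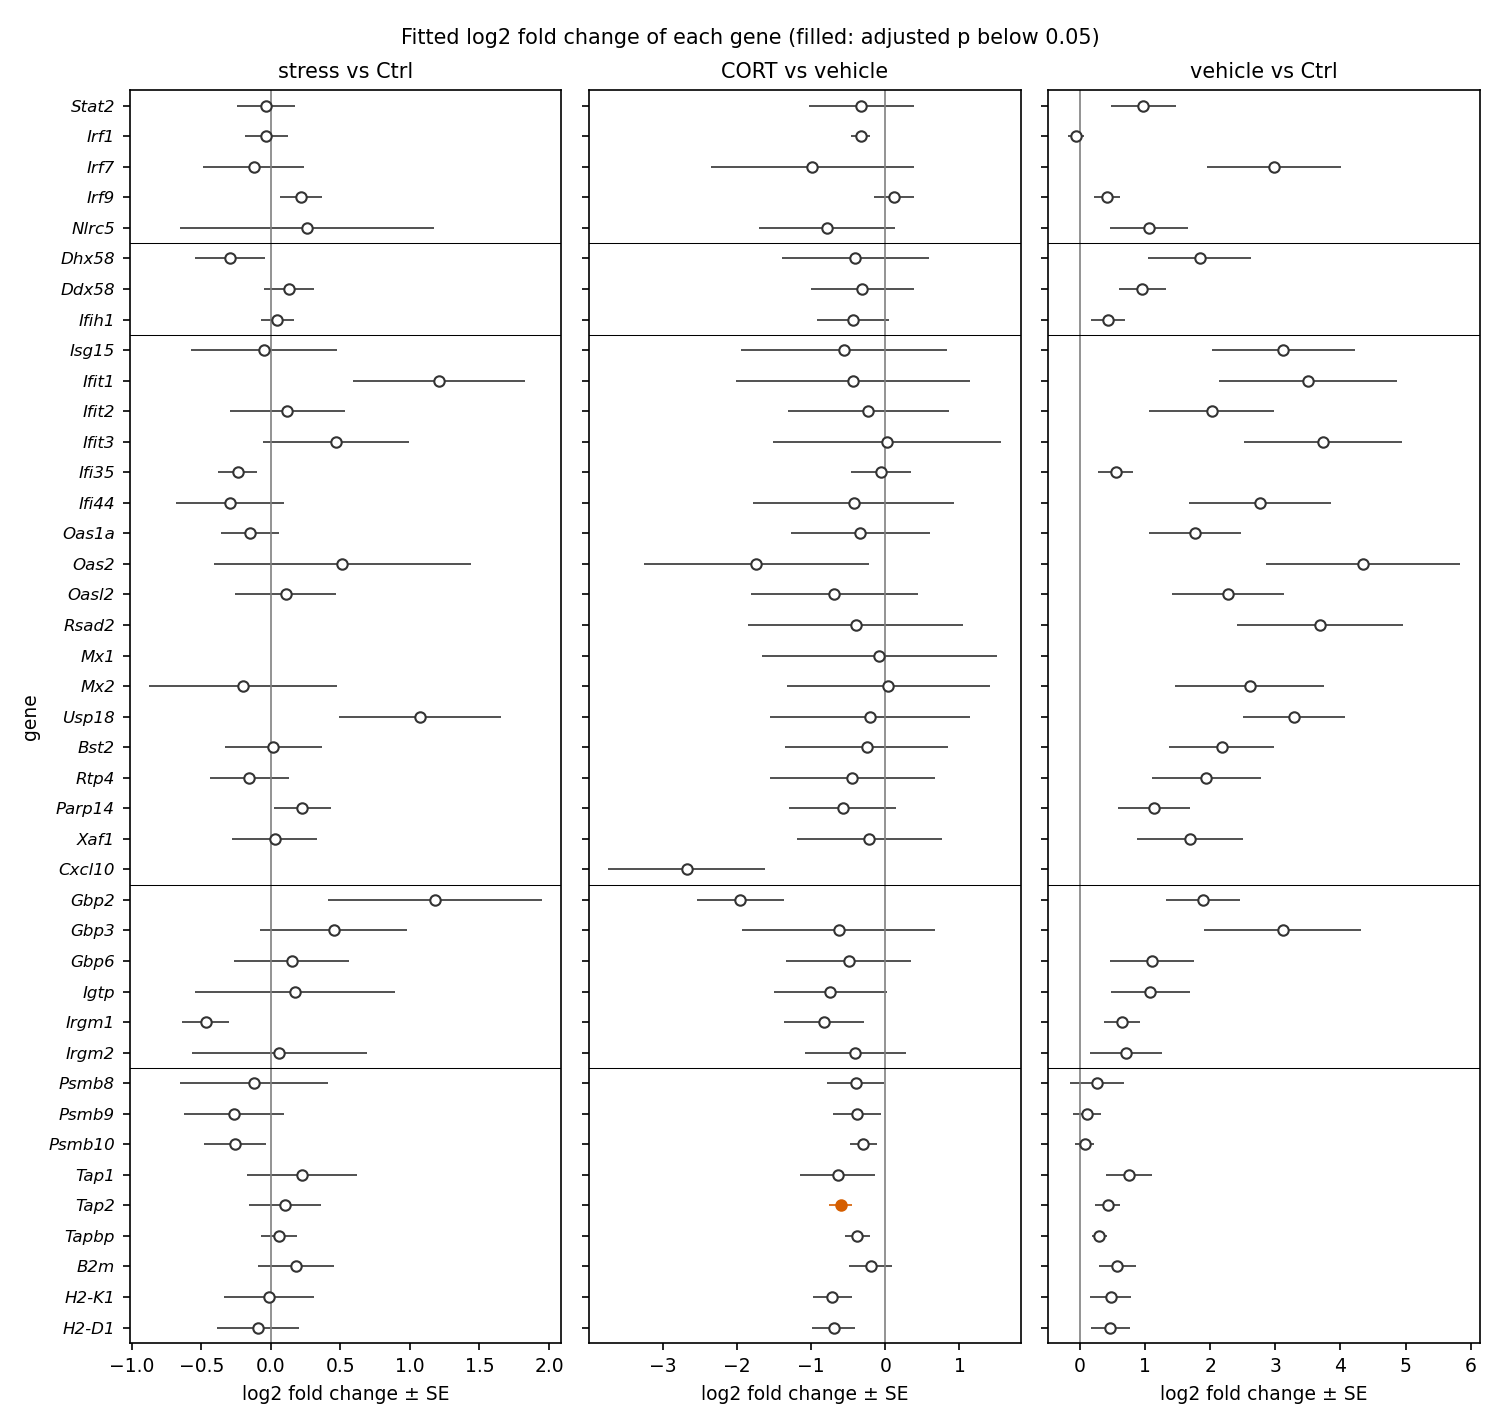
Fitted log2 fold change of each member (points) with its SE (bars) in stress vs. Ctrl, CORT vs. vehicle and vehicle vs. Ctrl, each panel with its own axis and with genes ordered by role. *Tap2* in CORT vs. vehicle is the filled point, and genes without a point did not pass the filter on low counts in that comparison.

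Whether the stress effect differed from the CORT effect was tested in one model of the 12 libraries. Of the 41 members, 0 were called by edgeR, against 0.513% of all genes tested, and DESeq2 called 0, against 2.62%. At an unadjusted p below 0.05 there were 2, *Cxcl10* and *Gbp2*, against 12.3% of all genes. The difference was 3.14 ± 1.12 for *Gbp2*, on the log2 scale, with an edgeR adjusted p of 0.255. The SE of the difference ran from 0.24 for *Irf1* upwards, with a median of 1.07 over the 41 members.

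Several other features differed among vehicle 3, vehicle 6 and CORT 2, and the part of any of them in the levels was not tested. Depth was 16465961, 31280267 and 69533214 counts. *Xist* was at 703 CPM in vehicle 6 and at 16.8 and 2.27 CPM in vehicle 3 and CORT 2, so that libraries with high and with low *Xist* were among them. *Fkbp5* was at 138 and 191 CPM in vehicle 3 and 6 and at 864 CPM in CORT 2, close to CORT 4 and 5 with 957 and 926 CPM. The enterocyte markers summed to 137 to 190 CPM in vehicle and 125 to 191 CPM in CORT. Of the 8 T cell and intraepithelial lymphocyte markers, 6 were at 0 in the 3 libraries, among them *Ptprc*, *Cd3g* and *Cd8a*. *Cd3e* was at 0.475, 0.130 and 0 CPM, its highest level of the 12 libraries being that in vehicle 3, below the floor, and *Itgae* at 1.19, 1.10 and 1.55 CPM. The 8 summed to 1.23 to 1.66 CPM in vehicle and 1.55 to 2.98 CPM in CORT. The labels give no date or batch.

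Transcripts of the ligands were at or near 0. Of 13 interferon ligands and inducers, 12 were at or below the floor in every library, including *Ifnb1*, *Ifng*, *Ifnl2* and *Ifnl3*. The exception, *Il18*, a cytokine that drives interferon gamma in lymphocytes, rose by 1.85 ± 0.35 on the log2 scale in stress vs. Ctrl (edgeR, adjusted p = 0.0176), from 1.91 to 2.40 CPM in Ctrl to 5.15 to 11.3 CPM in stress. All 6 enterocyte markers had estimates above 0 in the same comparison, from 0.87 to 3.60 on the log2 scale, with 5 not overlapping between groups (20.4% of all genes in either direction) and 0 called by edgeR. Stress 4+5+6 was the highest library for *Il18* and for their sum, and their part in the level of *Il18* was not tested.

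The receptors and kinases were expressed in all libraries with little spread, their 9 members summing to 547 to 684 CPM. *Ifngr1*, a chain of the interferon gamma receptor, rose by 0.44 ± 0.08 in stress vs. Ctrl (edgeR, adjusted p = 0.0177), with 112 to 122 CPM in Ctrl and 150 to 166 CPM in stress. It was 1 of 9 called there, against 1.97% of all genes. In CORT vs. vehicle 0 of 9 were called and 3 had an unadjusted p below 0.05, against 9.24% and 23.7% of all genes, and *Ifngr1*, *Il10rb* and *Jak2* had the smallest p (edgeR adjusted p = 0.0518, 0.0628 and 0.1). Of 10 brakes of the pathway, 1 was called in stress vs. Ctrl and 3 had an unadjusted p below 0.05, against 1.97% and 15.2% of all genes. The called gene was *Cish*, a SOCS family inhibitor of STAT5, which rose by 1.48 ± 0.26 (edgeR, adjusted p = 0.0123). *Trim24* rose by 0.56 ± 0.13 and *Ptpn1* fell by 0.30 ± 0.10 (edgeR, adjusted p = 0.0508 and 0.173). In CORT vs. vehicle 0 brakes were called and 5 had an unadjusted p below 0.05, against 9.24% and 23.7% of all genes.

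Among 14 adaptors and upstream factors, 2 were called lower in CORT vs. vehicle and 0 were called in stress vs. Ctrl (5 at an unadjusted p below 0.05, against 15.2% of all genes). *Irf8*, an IRF best known from myeloid cells, fell by 0.95 ± 0.10 on the log2 scale (edgeR, adjusted p = 0.0001536). It was at 141, 136 and 158 CPM in vehicle and at 74.5, 67.1 and 84.9 CPM in CORT, and CORT 2 lay between the other CORT libraries. *Mavs*, the adaptor of RIG-I and MDA5, fell by 0.35 ± 0.10 (edgeR, adjusted p = 0.0435). The 8 leukocyte markers other than those of T cells summed to 70.7 to 83.5 CPM in vehicle and 68.7 to 75.2 CPM in CORT, nearly all of it *Lcp1*.

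Of 43 further interferon-stimulated genes, 32 had their 3 highest levels in vehicle 3, vehicle 6 and CORT 2 (74.4%). *Ly6e* was at 786, 591 and 669 CPM in these and at 198 to 277 CPM in the other 9 libraries. In stress vs. Ctrl, CORT vs. vehicle and vehicle vs. Ctrl, 1 gene of this list was called, the guanylate-binding protein *Gbp7*, which rose by 1.59 ± 0.34 in vehicle vs. Ctrl (edgeR, adjusted p = 0.0487), with 3.23 to 4.44 CPM in Ctrl and 8.14 to 19.6 CPM in vehicle.

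Of 18 further MHC class I genes, 0 were called in stress vs. Ctrl, CORT vs. vehicle or vehicle vs. Ctrl (4, 2 and 2 at an unadjusted p below 0.05, against 15.2%, 23.7% and 10.9% of all genes), and vehicle 3, vehicle 6 and CORT 2 were the 3 highest libraries for 2 of them, the non-classical *H2-T23* and *H2-T24*. *H2-T23* was at 221, 168 and 160 CPM in vehicle 3, vehicle 6 and CORT 2 and at 74.1 to 121.4 CPM elsewhere. The 8 constitutive proteasome subunits, housekeeping counterparts of the immunoproteasome, summed to 971 to 1240 CPM and 0 of them were called in these comparisons (0, 2 and 0 at an unadjusted p below 0.05, against the same shares of all genes). Of the MHC class II genes, 1 of the 7 tested was called in CORT vs. vehicle, against 9.24% of all genes. This was *Ciita*, the master activator of MHC class II, which fell by 1.92 ± 0.28 (edgeR, adjusted p = 0.00375), with 23.1, 32.5 and 33.1 CPM in vehicle and 10.2, 4.70 and 8.67 CPM in CORT. For all 7, every CORT library lay below every vehicle library, as for 14.5% of all genes tested. Their median log2 fold change was -1.14, and 3 had an unadjusted p below 0.05, against 23.7% of all genes.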

How the data were processed

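Paired reads of 150 bases were mapped by the authors with HISAT2 to mm10 (version 2.0.5 in the methods, 2.2.1 in the submitters' processing notes, which also name StringTie 2.2.1) and name featureCounts 1.5.0-p3 for counting and DESeq2 1.20.0 for testing. The deposited values are estimated counts by gene. Coverage times transcript length came to 75 bases per count (74.9 to 75.0 by library), so a read pair gives at most 4 counts, and a floor of 3 pairs is 12 counts. It covers counting error only. The authors also deposited FPKM, used for levels between genes and for alternatives, and coverage per base, a signal used only to find that unit. Strand is not stated to have been used in counting, so overlapping genes such as *Psmb9* and *Tap1* may share counts. For *Gbp6*, listed under 2 identifiers, the one with more counts was used. No column was left without a sample.

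Counts were tested in edgeR 4.0.16 (R 4.3.3; filterByExpr, TMM, quasi-likelihood F-test, Benjamini-Hochberg over all genes tested) on the 6 libraries of each comparison or, for the difference of effects, on all 12, and a gene was called at an adjusted p below 0.05. The SE is the absolute log2 fold change over the square root of F. Fits were tested on simulated data. CPM used TMM factors over the 12 libraries, and logarithms a pseudocount of 1. Alternatives were DESeq2 1.42.0, its size factors, no filter, at least 10 counts in every library, all 12 libraries in one fit, log2(FPKM + 1) and log2(FPKM + 0.1) in limma 3.58.1, and leaving out each library. Members are given by library where they passed the threshold, had one of the 5 smallest p in a comparison with fewer calls, one of the 6 highest mean FPKM or one of the 8 widest ranges within a group (21 genes), and by range otherwise. Other list genes were to be named when called or among the 3 smallest p, and mainly the called ones are given. Some list genes are not reported here. *Nlrc5*, *Cd74*, *Ly6e* and *H2-T23* were given by library after their values were seen. The members and lists were chosen with earlier results of these data known.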

Additional observations from a re-analysis of the deposited data

Results flagged for a closer look

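*Cxcl10* was marked because every stress library lay above the Ctrl mean and every CORT library below the vehicle mean, opposite directions in the 2 treatments. The stress effect minus the CORT effect was 4.77 ± 1.68 (SE) on the log2 scale, and the test of this difference did not pass the threshold (edgeR, unadjusted p = 0.0119, adjusted p = 0.230). The gene was at 0.249, 0.667 and 1.90 CPM in stress and at 0.403, 0.135 and 0 CPM in CORT, mostly at or below the floor of 3 read pairs. Groups of 3 libraries are too small for the test of single outlying samples.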

How the results depend on the processing

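No paired analysis was possible because the groups compared share at most 1 library number. In stress vs. Ctrl and in the difference of the effects, 0 members were called under every alternative. In CORT vs. vehicle, 1 member was called lower in the fit as designed, 2 with DESeq2, 0 with all 12 libraries in one fit (*Tap2* then had an adjusted p of 0.163) and 0 to 11 when single libraries were left out, with 11 only without CORT 2. In vehicle vs. Ctrl, 5 members were called higher with DESeq2 and 0 to 11 when single libraries were left out, with 11 only without vehicle 5. Averaged over the members, CORT 2 was the highest CORT library and vehicle 5 the lowest vehicle library. Larger differences without either were thus built in. The members' median log2 fold change ran from -0.16 to 0.37 in stress vs. Ctrl, -1.42 to -0.050 (-0.05027 without vehicle 3) in CORT vs. vehicle, 0.73 to 1.65 in vehicle vs. Ctrl and 0.18 to 1.44 (1.435 without CORT 2) in the difference when single libraries were left out. Without vehicle 3, vehicle 6 and CORT 2 together, an alternative chosen after the data had been seen and because the members were highest there, it was -0.30 in CORT vs. vehicle, where *Irgm1* alone was called, and 0.16 in vehicle vs. Ctrl. The cause of these shifts was not tested. Summed levels of each role relative to Ctrl moved by less than the spread within the group when FPKM replaced CPM. With 3 libraries a group and levels split within vehicle and CORT, depth was not the limit for abundant members, but *Cxcl10*, *Mx1*, *Rsad2* and *Oas2* were near the counting floor in Ctrl. At least 1 Ctrl library was also near or below the floor for *Usp18*, *Gbp2*, *Mx2*, *Ifit1* and *Ifit3*, among others.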
